A study of Mus musculus with 50 samples.

Results

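The livers compared here were chosen by their own Dbp level: 50 liver libraries of a mouse backcross were ranked by Dbp, and the 16 with the highest values were set against the 16 with the lowest, while the 18 between them were kept aside. Dbp encodes a transcription factor of the PAR bZIP family and is a well-known output of the circadian clock in liver. The mice were N2 males of the cross (B6.A4 x B6)F1 by (B6.A6 x B6)F1, in which B6.A4 and B6.A6 are C57BL/6J mice carrying chromosome 4 or 6 of A/J, so that A/J alleles segregate on those chromosomes alone. The study's methods give 5 weeks of age, an overnight fast and RNA from liver, and the labels describe adult males of an F2 cross. All 50 libraries carry the same label, so high and low Dbp are not treatments or genotypes but groups made from a measured transcript. The study's text counts fewer livers than the table has libraries. The genotypes were not used here, and the hour at which each liver was taken is not given in the sources used here.

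The clock of a liver cell is a loop of transcription. A dimer of BMAL1 (the product of Arntl) with CLOCK, or with its relative NPAS2, binds E-boxes and switches on the Per and Cry genes, whose products repress that dimer. The same dimer switches on Nr1d1 and Nr1d2, the REV-ERB repressors, which in turn silence Arntl and Npas2 through ROR elements. Dbp, Tef and Hlf form the output arm: their products bind D-boxes and drive enzymes of drug and haem metabolism. In mouse liver Dbp and Nr1d1 are known to peak in the daytime, about opposite to Arntl and Npas2.

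Expression was measured as normalized CPM, that is, CPM relative to a library size that the authors scaled between libraries. The counted reads per library ran from 11965594 to 29976557 with a median of 13620584, and 3 reads were worth between 0.0951 and 0.259 normalized CPM. The libraries were numbered in the ranges 1 to 30 (28 libraries) and 31 to 59 (22 libraries), and the high group held 10 and 6 of them against 9 and 7 in the low group (Fisher's exact test, 2-sided p = 1). Reads per library averaged 17298949 in the high group and 14889033 in the low group (2-sided permutation test p = 0.126, adjusted over 4 technical values 0.252). The 10 highest genes took 34.2% ± 1.08 of the reads in the high group and 33.6% ± 1.73 in the low group (SD, n = 16 each, permutation p = 0.215, adjusted 0.287). A few libraries need to be named before the results. Libraries 22 and 55, both in the low group, carry the same animal number, as do library 10 of the high group and library 8 of the middle livers, and library 24 of the low group had the lowest column total of the table. Whether a shared number means the same animal cannot be told apart here from a shared label, and no source says which libraries shared an extraction day. The livers are taken as separate samples, and each p-value sets a difference against the spread between these libraries. Neighbouring animal numbers often shared a Dbp group, as given below, and libraries 22 and 55 share a number. The libraries may therefore not be independent, and the p-values of the comparison of the groups may be too small.

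Dbp itself was used to choose the livers and is given as a description with no test. In the high group it had a lowest value of 11.7, a median of 17.9 and a highest of 36.1 normalized CPM, from 150 to 679 reads per library. In the middle livers the lowest, median and highest values were 5.10, 8.46 and 11.5. In the low group they were 2.23, 3.18 and 5.02, from 32 to 89 reads, so the medians of the outer groups lay 5.63-fold apart. The borders of the groups cut through a continuous distribution. The last liver inside the high group stood at 11.7 (95% exact Poisson interval 9.93 to 13.7, counting error only) and the next one outside it at 11.5 (9.79 to 13.4). The first liver of the low group, in rank 35, stood at 5.02 (3.83 to 6.46) against 5.10 (4.18 to 6.16) in rank 34.

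The smallest adjusted p-values between the 2 groups were those of clock genes together with other genes. Among the others were Cyp2a5, listed as a detoxification target of the PAR bZIP factors, and Asap2, which is in none of the clock lists. Of the clock, Tef, Nr1d1, Per3, Nr1d2 and Cry2 were higher and Npas2 was lower in livers with high Dbp, with Nr1d1 2.57-fold and Per3 2.54-fold higher and Npas2 4.19-fold lower by the ratio of group means. Of 11435 genes with a mean of at least 1 normalized CPM, tested by limma on log2(value + 0.5) with Benjamini-Hochberg adjustment, 383 passed at an adjusted p under 0.05, of which 187 were higher (1.64%) and the rest were lower (1.71%). The rises ran from 0.16 to 1.54 on the log2(value + 0.5) scale with a median of 0.34, and the falls from -0.14 to -1.43 with a median of -0.35, so most of these differences were modest. Only 8 of the genes passed 2-fold on that scale, namely Ciart, Nr1d1, Per3, Usp2 and Cyp2a5 upward and Npas2, Cdkn1a and the phosphate transporter gene Slc34a2 (named after its value was seen) downward. Slc34a2 is a gene of few reads, with medians of 0.511 and 2.02 normalized CPM in the high and low groups (limma adjusted p = 0.00428). Its lowest value in the high group, 0.132 in library 6, was worth 3 reads. edgeR's quasi-likelihood test on the recovered reads called 187 higher and 249 lower, and 364 of the 383 genes were called in the same direction by both tools. Of the calls, 48.8% were upward, and 26.2% were upward (105 genes) when plain CPM replaced the authors' scaling. Without library 22 the counts rose to 311 and 304, and without library 24 they fell to 137 and 143.

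**Figure D1:**
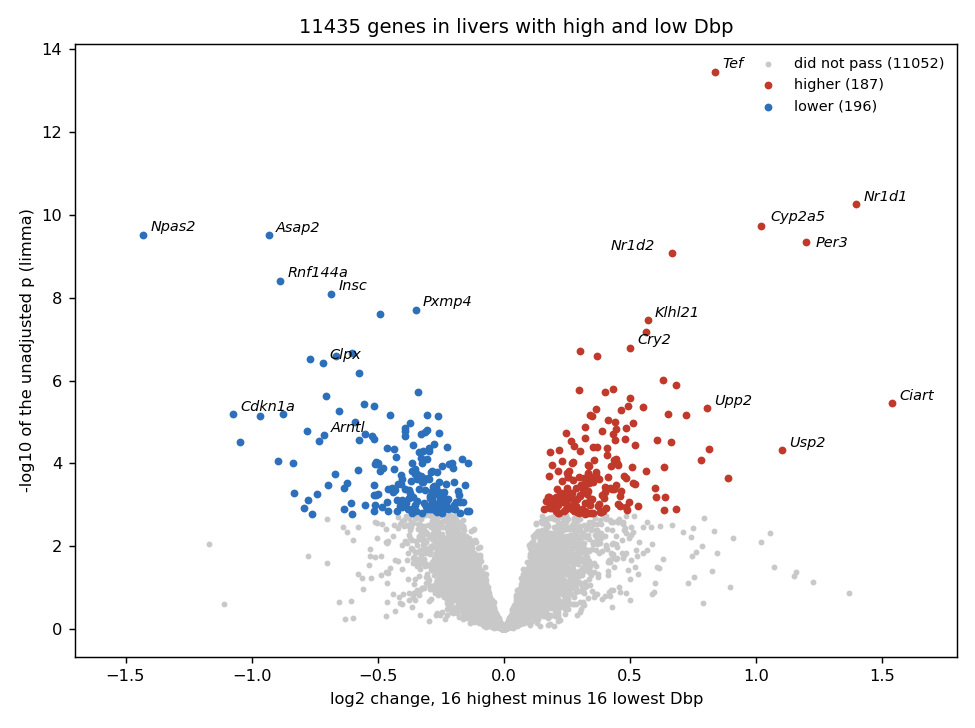
Change of each of the 11435 genes tested between the 16 livers with the highest and the 16 with the lowest Dbp (x axis, difference of log2(value + 0.5)) against the unadjusted p of limma (y axis, -log10); red points are the 187 genes that were higher and blue points those that were lower at an adjusted p under 0.05. Tef, Nr1d1, Cyp2a5, Per3 and Nr1d2 stand at the top on the right and Npas2 and Asap2 on the left.

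Tef, the PAR bZIP relative of Dbp, separated the groups completely. Its lowest, median and highest values were 79.3, 97.7 and 118 normalized CPM in the high group and 39.6, 53.3 and 68.3 in the low group, so every liver with high Dbp lay above every liver with low Dbp. Its change was 0.84 ± 0.07 (log2, SE) with an adjusted p of 4e-10 by limma. Tef, on chromosome 15 (GRCm38, 81802421 to 81826863), was the only one of the 11435 genes (0.00875%) whose groups did not overlap. The third family member, Hlf, stood at medians of 39.9 and 39.3 with a change of 0.07 ± 0.08 (adjusted p = 0.657), and its values overlapped almost entirely.

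The REV-ERB genes were higher in livers with high Dbp. Nr1d1, on chromosome 11 (98767932 to 98775333), ran from 43.2 over a median of 72.7 to 99.4 in the high group and from 13.8 over 24.5 to 49.4 in the low group. In 14 of the 16 livers with high Dbp it lay above every liver with low Dbp, and the change was 1.40 ± 0.15 (limma adjusted p = 3.14e-07). Nr1d2 ran from 33.8 over 46.9 to 58.95 against 19.03 over 29.6 to 36.02, and 15 of 16 livers lay above the low group's highest value. Its change was 0.67 ± 0.08 (adjusted p = 1.39e-06 by limma). Nr1d1 overlaps the thyroid hormone receptor gene Thra on the other strand, and Thra was lower, by -0.39 ± 0.08 (adjusted p = 0.00315 by limma). The libraries were stranded, but the strand setting of the counting is not given in the sources used here.

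Among the Period genes, Per3 was higher and the other members did not pass. Per3 ran from 4.23 over a median of 6.55 to 11.8 in the high group and from 1.26 over 2.35 to 4.51 in the low group, and 14 of 16 livers with high Dbp lay above the low group's highest value. Its change was 1.20 ± 0.14 with an adjusted p of 8.41e-07 by limma. Per3 lies on chromosome 4 (151003652 to 151044665), which segregates in this cross. Per2 had medians of 7.09 and 4.81 and a change of 0.50 ± 0.16 that missed the threshold (adjusted p = 0.0716). Per1 had medians of 27.96 and 25.5, a change of 0.05 ± 0.12 and an adjusted p of 0.866, and its groups covered nearly the same range. The differences between the 3 Period genes were not themselves tested.

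Of the Cryptochrome genes, which encode the partners of the PER proteins, Cry2 was higher. It ran from 22.1 over 25.8 to 33.4 against 13.9 over 17.9 to 26.4, with 8 of 16 livers above the low group and a change of 0.50 ± 0.08 (limma adjusted p = 0.000134). Cry1 pointed the other way, with medians of 6.37 and 8.76 and a change of -0.50 ± 0.16 that missed the threshold in limma (adjusted p = 0.0636) and passed it in edgeR (adjusted p = 0.0401). Ciart, a repressor of the BMAL1 dimer, ran from 3.62 over 9.26 to 22.4 in the high group and from 0.584 over 3.31 to 13.8 in the low group, so that its groups overlapped widely. Its change of 1.54 ± 0.28 was nevertheless the greatest rise among the genes that passed (limma adjusted p = 0.00134). Bhlhe40, which encodes the repressor DEC1 and lies on chromosome 6, changed by 0.82 ± 0.17 (limma adjusted p = 0.00564), with medians of 32.5 and 18.3. In all, 7 of the 11 measured genes of the E-box driven arm were higher, 0 were lower and 4 did not pass, with a median change of 0.67 against 0.00 over all genes tested and 1.64% of them higher. With a smooth curve of animal number in the limma model, 6 of the 11 passed, and the call for Bhlhe40 was lost (adjusted p = 0.0935). Bhlhe41 was below the minimum level. The lists were drawn up with earlier results on these samples known, so these counts describe the lists and do not test them.

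Of the 6 genes listed as the activating arm, 2 were lower and 0 were higher, against 1.71% and 1.64% of all genes tested. The list includes the repressor gene Nfil3, so it does not hold activators alone. Npas2, which encodes the alternative partner of BMAL1, ran from 0.233 over a median of 0.446 to 1.17 normalized CPM in the high group and from 0.837 over 2.32 to 5.31 in the low group. In 11 of 16 livers with high Dbp it lay below every liver with low Dbp, and its change was -1.43 ± 0.16 (limma adjusted p = 7.04e-07). It is a gene of few reads, down to 3 in a library, so single values carry a wide counting error. Arntl, on chromosome 7 (113207465 to 113314126), ran from 5.37 over 10.2 to 19.99 against 13.8 over 19.1 to 27.5, and its change was -0.71 ± 0.14 (limma adjusted p = 0.00352). With the curve of animal number Npas2 still passed and Arntl did not (limma adjusted p = 0.199). The remaining 4 genes of the arm did not pass. Clock differed by -0.16 ± 0.08 (adjusted p = 0.289), the D-box repressor gene Nfil3 by -0.34 ± 0.14 (0.185), and Rora, whose product activates Arntl, by -0.19 ± 0.10 (0.323). None of the 6 had a positive difference, and their median was -0.27.

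**Figure D2:**
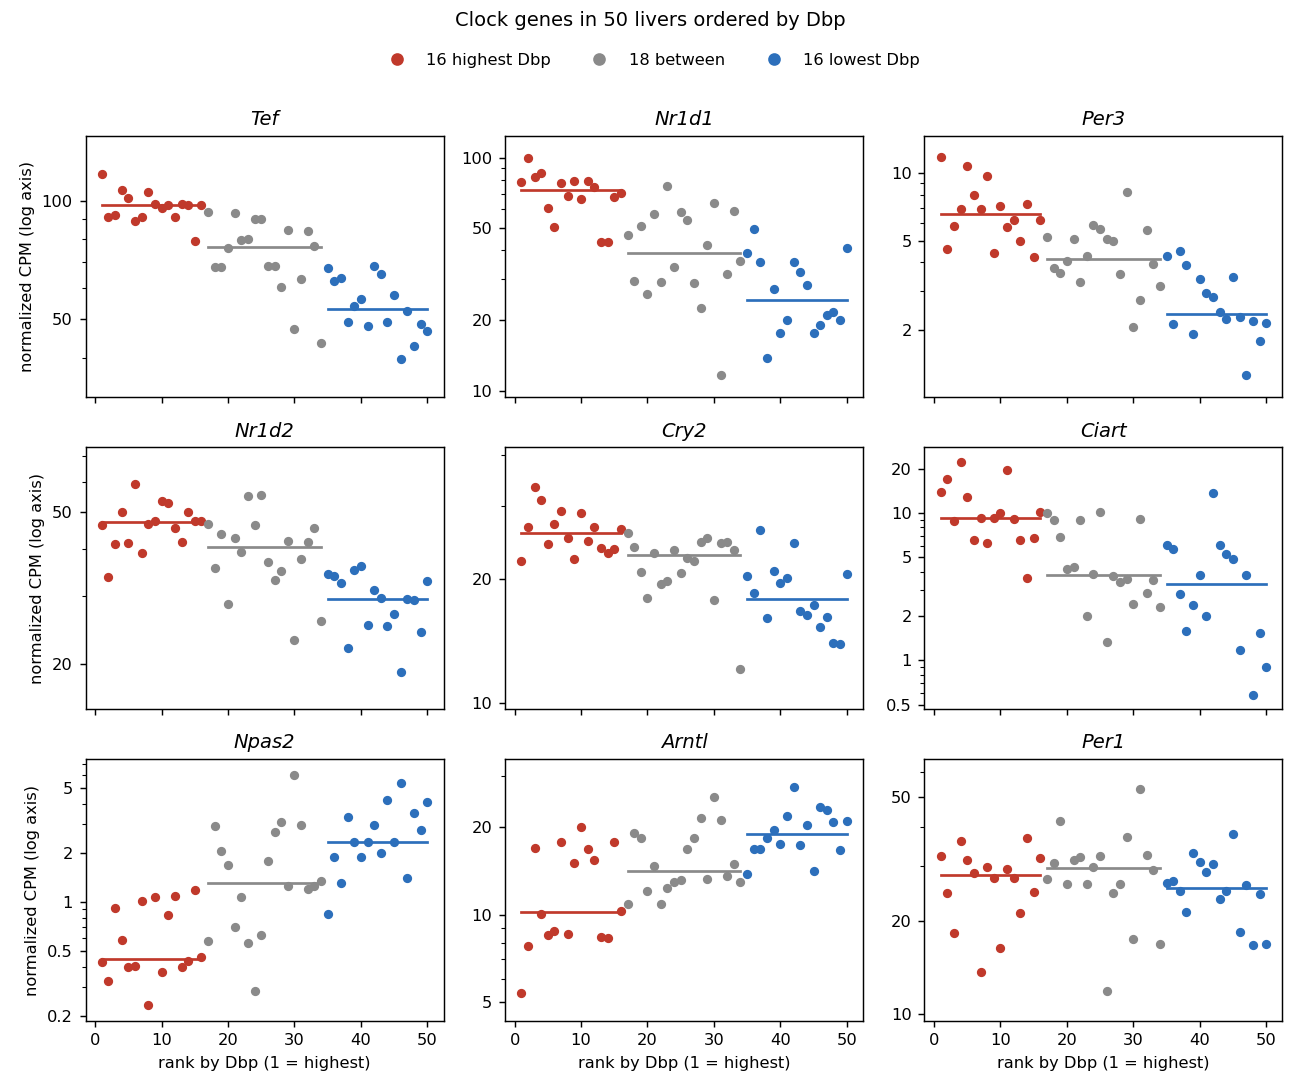
Normalized CPM (log axis) of 9 clock genes in each of the 50 livers, ordered from the highest Dbp (rank 1) to the lowest (rank 50); red points are the 16 livers with the highest Dbp, grey the 18 between, blue the 16 with the lowest, and lines are group medians. Tef falls from a median of 97.7 to 53.3 and Npas2 climbs from 0.446 to 2.32 across the ranks, whereas Per1 lies at 27.96 and 25.5.

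Arntl was not uniform within the high group. Ordered by Arntl, the 16 livers fell on both sides of a gap, with 9 livers from 5.37 to 10.3 and 7 livers from 15.03 to 19.99 normalized CPM, a division chosen after the values were seen and not tested. Clpx, which encodes the unfoldase subunit of the mitochondrial ClpXP protease and was lower in the high group, followed the same division without overlap, from 75.7 to 162 in the 9 livers and from 179 to 227.2 in the 7. How many of all genes tested divide there is not given, so Clpx has no background to be judged by. Npas2 had medians of 0.405 and 1.01 on the 2 sides. Nr1d1 did not divide there: its 66.6 to 82.2 in the 7 livers lay inside the 43.2 to 99.4 of the 9. All 5 libraries of animals I236 to I245 were among the 7.

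The promoters of 3 of these genes and a site in Arntl are shown. They were picked because they hold elements through which the loop and the PAR bZIP factors are known to act. The stretches are from RefSeq (GRCm38.p6), each 250 bases long and ending at the base before an annotated gene start, written 5′ to 3′ along the gene. The motifs searched on both strands were the E-box CACGTG, the D-box TTANGTAA and the ROR element TAGGTCA, and capitals mark the matches, none of which overlap here. Ciart (chr3:95882229-95882478, minus strand) holds 3 E-boxes, at 116, 58 and 44 bases before the start. Per3 (chr4:151044666-151044915, minus strand) holds 2 D-boxes, at 205 and 158 bases before the start, the kind of element that DBP and TEF bind. The second annotated start of Tef (chr15:81811164-81811413, plus strand) has 1 E-box at 138 bases.
Ciart: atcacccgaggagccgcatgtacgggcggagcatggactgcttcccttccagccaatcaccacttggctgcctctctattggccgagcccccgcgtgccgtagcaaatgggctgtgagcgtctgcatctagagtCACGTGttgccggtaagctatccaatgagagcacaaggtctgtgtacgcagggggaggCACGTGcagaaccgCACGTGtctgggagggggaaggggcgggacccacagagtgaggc
Per3: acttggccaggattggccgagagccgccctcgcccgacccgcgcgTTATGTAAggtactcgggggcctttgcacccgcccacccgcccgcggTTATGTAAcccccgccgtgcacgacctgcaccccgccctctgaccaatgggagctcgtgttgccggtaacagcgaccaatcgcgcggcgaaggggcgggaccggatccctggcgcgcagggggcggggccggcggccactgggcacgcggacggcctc
Tef: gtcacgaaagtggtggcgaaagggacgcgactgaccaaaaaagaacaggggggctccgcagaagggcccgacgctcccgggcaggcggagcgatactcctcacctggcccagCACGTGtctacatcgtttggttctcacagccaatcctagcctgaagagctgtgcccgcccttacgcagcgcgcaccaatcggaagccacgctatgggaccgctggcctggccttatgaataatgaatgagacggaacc
In Arntl the match lay after the second annotated start, and 27 bases around this ROR element (chr7:113207531-113207557, plus strand) are shown.
Arntl: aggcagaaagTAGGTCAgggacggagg

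Within windows from 250 bases before to 50 after each start, 39 of the 46 genes named by the fixed rule (with Dbp) had a RefSeq window. The windows of Dbp, Nr1d1, Nr1d2, Cry2, Npas2 and Cyp2a5 hold none of these letters, which says nothing about elements elsewhere in those genes. Besides the genes shown, E-boxes stood in the windows of Insig1 and Fkbp5, which were higher, and of Plin2, which was lower. The windows of Cry1 and Per1, which did not pass limma, also held an E-box. ROR elements stood in the windows of Plin2 and of Nfil3, which did not pass. Of all 32851 RefSeq windows of that length, 7.15% held an E-box, 2.32% a D-box and 2.61% a ROR element. Among 8962 tested genes with a window, 1079 held an E-box (12%), 1.95% held a D-box and 2.51% a ROR element. These shares and those that follow count genes and not windows, so the 7.15% of all windows is not their background. The shares of called genes were not tested against those of all tested genes. Among the genes higher in livers with high Dbp 25 of 163 held an E-box (15.3%), 1.84% a D-box and 3.07% a ROR element, and among the lower ones 22 of 143 (15.4%), 0.699% and 4.20%. A match is a description and not a binding site.

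Of 12 listed outputs of the liver clock, 3 were higher, 1 was lower and 8 did not pass, against 1.64% higher and 1.71% lower over all genes tested. Usp2, which encodes a ubiquitin protease with a strong daily rhythm in liver, ran from 10.8 over a median of 21.7 to 29.2 in the high group and from 2.44 over 10.2 to 32.1 in the low group, a change of 1.10 ± 0.24 (limma adjusted p = 0.00585). The groups overlapped throughout, the highest low value being that of library 22. Upp2, a uridine phosphorylase, had medians of 392.3 and 243.4 and changed by 0.81 ± 0.15 (adjusted p = 0.00151 by limma). Nampt, the rate-limiting enzyme of NAD salvage, changed by 0.27 ± 0.07 (adjusted p = 0.0262 by limma). Insig2, which retains the SREBP cleavage complex in the endoplasmic reticulum, was lower, with medians of 339 and 508 and a change of -0.50 ± 0.11 (adjusted p = 0.00964 by limma). Cyp7a1, the rate-limiting enzyme of bile acid synthesis, differed by -0.53 ± 0.23 and did not pass (adjusted p = 0.205). Lpin1, a phosphatidate phosphatase, had medians of 251 and 90.6, and its difference of 0.91 ± 0.31 did not pass either (adjusted p = 0.0993). With the curve of animal number Upp2 alone of the 12 passed limma, and the adjusted p was 0.0742 for Usp2, 0.0514 for Insig2 and 0.317 for Nampt.

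Dbp, Tef and Hlf are known to drive a set of detoxification genes, and 1 of the 8 listed members was higher and 0 were lower by limma, against 1.64% and 1.71% of all genes tested, while edgeR called 3 of the 8, Cyp2a5 and Cyp2c29 higher and Cyp2b10 lower. Cyp2a5, a coumarin hydroxylase, ran from 226 over a median of 355 to 653 against 120 over 171 to 251 normalized CPM. In 14 of 16 livers it exceeded every liver with low Dbp, and the change was 1.02 ± 0.11 (limma adjusted p = 7.04e-07). Its near-identical neighbour Cyp2a4 had medians of 3.63 and 7.39 with a difference of -0.65 ± 0.52 (adjusted p = 0.532), and reads of the pair could be split between the genes by the counting. The other members did not pass. The nuclear receptor gene Nr1i3 (CAR) differed by 0.37 ± 0.12 (adjusted p = 0.0776), the P450 genes Cyp2c29 by 0.28 ± 0.08 (0.0586), Cyp2c37 by 0.31 ± 0.13 (0.174) and Cyp2b10 by -1.17 ± 0.42 (0.114). Por, which encodes the electron donor of the P450 enzymes, differed by 0.15 ± 0.13 (0.549), and Alas1, the rate-limiting enzyme of haem synthesis, by -0.02 ± 0.15 (0.962).

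**Figure D3:**
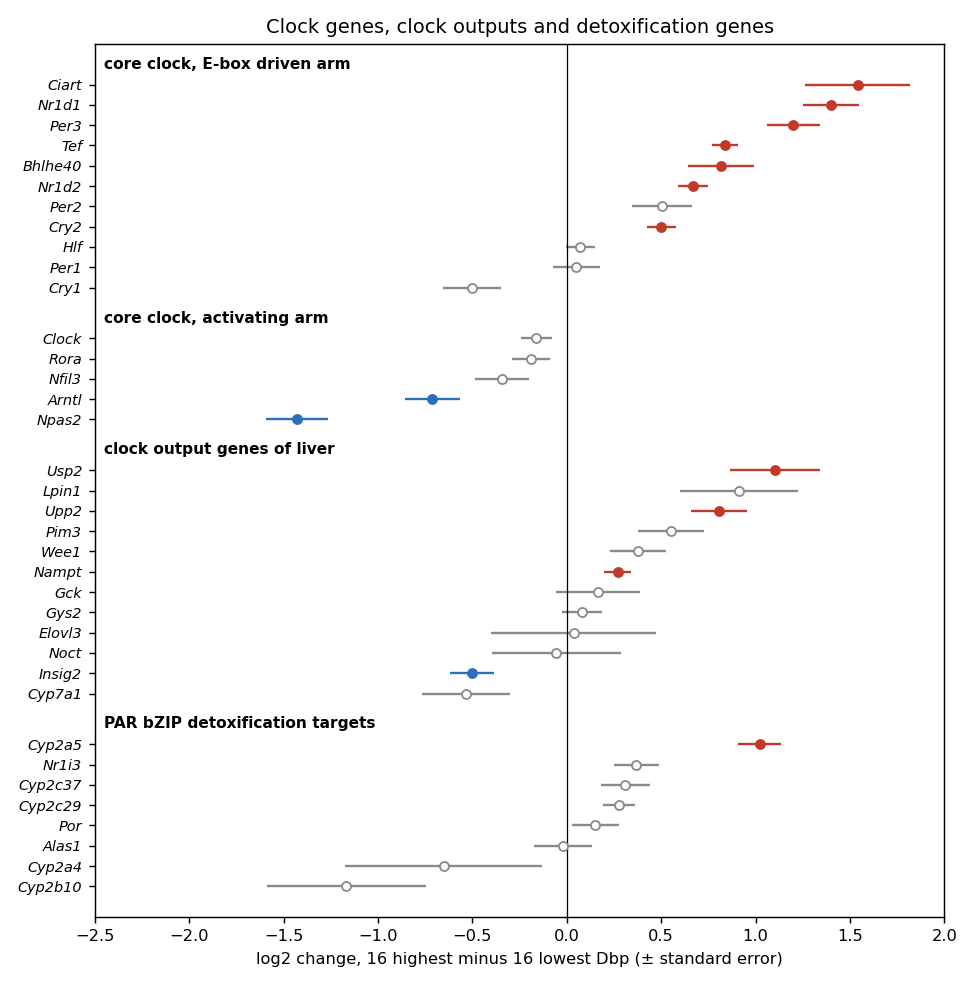
Difference of log2(value + 0.5) between the 16 livers with the highest and the 16 with the lowest Dbp for genes of 4 lists, as points with bars of 1 standard error; filled red and blue points passed limma at an adjusted p under 0.05 and open grey points did not. The E-box driven genes that passed lie to the right, up to 1.54 for Ciart, and Npas2 (-1.43) and Arntl (-0.71) to the left.

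Outside the clock lists, the strongest differences were in genes of varied function. Asap2, an Arf GTPase-activating protein gene, ran from 5.64 over a median of 7.66 to 10.4 in the high group and from 9.65 over 16.8 to 22.6 in the low group. In 14 of 16 livers it lay below every liver with low Dbp, and its change was -0.93 ± 0.11 (adjusted p = 7.04e-07 by limma). Rnf144a, a ubiquitin ligase gene, changed by -0.89 ± 0.11 and Insc, which encodes an adaptor of the spindle orientation complex, by -0.68 ± 0.09. Pxmp4, a peroxisomal membrane protein gene, differed little but evenly: 86.4 against 110 by medians, with 14 of 16 livers below the low group and a change of -0.35 ± 0.05. Btg1, an antiproliferative gene, changed by -0.49 ± 0.07, also with 14 of 16 livers below the low group. The 12 falls with the smallest adjusted p also included Npas2, St5, Tubb2a, Dnmt3b, Clpx and Tymp, with changes from -0.34 (Tymp) to -0.77 (Dnmt3b, a de novo DNA methyltransferase gene) apart from Npas2. Tubb2a has near-identical paralogues, so its value is uncertain.

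Clpx ran from 75.7 over 161 to 227.2 in the high group and from 180 over 282.5 to 333 in the low group, and its change was -0.72 ± 0.11 (limma adjusted p = 0.000212). Of the rises outside the clock lists, Klhl21, a cullin 3 adaptor gene on chromosome 4, changed by 0.57 ± 0.08 (limma adjusted p = 3.35e-05), with 9 of 16 livers above the low group. Tns2, which encodes a focal adhesion protein, changed by 0.56 ± 0.08, Narf by 0.30 ± 0.05 and Lims2, also of focal adhesions, by 0.37 ± 0.06. Akr1c19, an aldo-keto reductase gene in a cluster of similar genes, changed by 0.63 ± 0.11, and its neighbour Akr1c6 by 0.61 ± 0.13. Reads of that family could be shared between members.

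Some sterol and fasting genes passed. Insig1, the paralogue of Insig2, was higher, from 25.7 over a median of 38.5 to 55.96 against 16.1 over 21.2 to 40.3 normalized CPM, with 8 of 16 livers above the low group. Its change was 0.68 ± 0.12 (limma adjusted p = 0.00064), opposite in sign to that of Insig2. Insig1 was the only one of the 22 sterol synthesis genes tested to pass, against 1.64% higher and 1.71% lower of all genes tested. The median of the list was 0.04. Of 17 fasting response genes, 2 were lower and 0 were higher, against 1.71% and 1.64% of all genes tested. Plin2, which coats lipid droplets, had medians of 266 and 410 and changed by -0.52 ± 0.11 (limma adjusted p = 0.00414). Pdk4, the kinase that shuts pyruvate dehydrogenase, changed by -0.55 ± 0.15 (limma adjusted p = 0.0382), and the call was lost on leaving out any of 17 single libraries, in edgeR (adjusted p = 0.0581) and with the curve of animal number (limma adjusted p = 0.253). The gluconeogenic genes Pck1 and G6pc differed by 0.18 ± 0.09 (adjusted p = 0.268) and -0.11 ± 0.13 (0.701). None of 9 fatty acid synthesis genes or of 9 bile acid genes passed.

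Some stress and hormone lists held genes that passed and others did not, where 1.64% of all genes tested were higher and 1.71% lower. Cdkn1a, which encodes the cyclin-dependent kinase inhibitor p21, ran from 13.3 over 29.9 to 44.5 in the high group and from 19.999 over 58.0 to 118 in the low group, a change of -1.07 ± 0.20 (limma adjusted p = 0.00171). It was the only fall among 12 glucocorticoid response genes, where Fkbp5, a co-chaperone gene, was the only rise (0.68 ± 0.19, limma adjusted p = 0.0419). The call for Fkbp5 was lost on leaving out any of 20 single libraries and in edgeR (adjusted p = 0.141). Jun was the only gene to pass among 9 immediate early genes (-0.78 ± 0.21, limma adjusted p = 0.033), and it no longer passed without library 19, 21, 24 or 25. Trib3 was the only one among 16 genes of the unfolded protein response, with medians of 12.8 and 8.42 and a change of 0.67 ± 0.14 (limma adjusted p = 0.00428). With the curve of animal number the calls for these 4 genes were lost, with limma adjusted p-values of 0.0683 for Cdkn1a, 0.0693 for Fkbp5, 0.103 for Jun and 0.0742 for Trib3. No gene passed among 9 heat shock genes, 2 cold-inducible genes, 16 acute phase genes, 9 cell cycle genes, 5 genes of clock protein turnover, 11 male-type or 6 female-type liver genes. At the shares of all genes tested, lists this short would hold few calls or none, so their lack of calls lies near the background. Hsph1, the heat shock gene nearest to the threshold, differed by 0.62 ± 0.20 (adjusted p = 0.0702). The 11 male-type genes had a median of 0.36 against 0.00 over all genes tested, with differences from -0.14 to 0.82 and a smallest adjusted p of 0.122. The 6 female-type genes lay on the other side, with a median of -0.38, differences from -0.65 to -0.27 and a smallest adjusted p of 0.526.

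Markers of hepatocytes and of other cell types gave no calls between the groups, where 3.35% of all genes tested passed. Alb, the albumin gene, had medians of 72945 and 82026 normalized CPM and a difference of -0.07 ± 0.07 (adjusted p = 0.597), and none of the 6 hepatocyte markers passed. The 6 other cell types were Kupffer, endothelial, stellate, cholangiocyte, erythroid and lymphoid or antigen-presenting cells. Of their 44 tested markers 0 passed limma, with differences from -0.31 to 0.30 and a smallest adjusted p of 0.0678. For so few genes 0 calls lie near the share of all genes tested, so the counts do not show that cell composition was equal. The summed Kupffer markers ran from 344 to 552 in the high group and from 360 to 622 in the low group. The summed stellate markers ran from 119 to 231 and from 107 to 239. In such bulk samples, fewer cells of a type and less RNA per cell cannot be told apart. The genes that passed were spread over the genome: 22 of 729 tested on chromosome 4 (3.02%) and 14 of 575 on chromosome 6 (2.43%), against 3.35% of all genes tested and up to 5.70% on chromosome 15. Of the genes named here that passed, Per3, Klhl21, Plin2 and Jun lie on chromosome 4 and Bhlhe40 and Pdk4 on chromosome 6, and their alleles were not used.

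The 18 livers between the groups were not used to form them, and they gave no gene a call of its own. In a limma regression on log2 Dbp, 0 genes rose (0%) and 0 fell (0%) at an adjusted p under 0.05, and at an unadjusted p under 0.05 the counts were 93 rising (0.813%) and 146 falling (1.28%). Their range of Dbp was narrow, with an SD of log2 Dbp of 0.32 against 1.25 over the 2 outer groups together. Of the 187 genes higher in the outer comparison, 102 (54.5%) had a positive slope in the middle livers, against 50.4% of all genes tested. Of the lower genes, 108 (55.1%) had a negative slope, against 49.6%. Both shares lie close to the background. Tef had a slope of 0.48 ± 0.20 log2 units per log2 unit of Dbp (unadjusted p = 0.0279), Ciart of 1.11 ± 0.49 (0.0353) and Btg1 of -0.43 ± 0.14 (0.00739), none of which passed adjustment. Npas2 had a slope of -0.48 ± 0.54 (unadjusted p = 0.39), Per3 of 0.20 ± 0.30 (0.509) and Nr1d1 of 0.22 ± 0.46 (0.639), which have the signs of the outer comparison but errors larger than the slopes. Of the 37 named genes that passed, 26 had the sign of the outer comparison in the middle livers and 11 had the opposite sign. The opposite sign was seen for Cyp2a5 (-0.08 ± 0.32), Asap2 (0.07 ± 0.30), Insc (0.05 ± 0.30), Insig2 (0.11 ± 0.24), Trib3 (-0.25 ± 0.30) and Jun (0.25 ± 0.61), among others, each with an error larger than the slope.

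Pairs of clock genes other than Dbp were compared across all 50 livers, a comparison that does not use the ranking itself. Per3, Nr1d1, Arntl and Npas2 all passed between the Dbp groups of these same livers, however. Correlations with these signs are therefore partly built in, and their p-values are no support independent of Dbp. Per3 and Npas2 had Pearson's r = -0.76 and Spearman's rho = -0.79 (permutation p = 1e-05 each, the smallest that 100000 permutations can give, adjusted over 6 pairs 1.5e-05 and 1.2e-05). Without the 2 livers farthest from the median of Per3, r was -0.80, within libraries 1 to 30 it was -0.83, within 31 to 59 it was -0.70 and in the 18 middle livers -0.64. Per3 and Arntl had r = -0.70 and rho = -0.65, with r = -0.65 without 2 livers, -0.75 and -0.63 within the library ranges and -0.53 in the middle livers (permutation p = 1e-05, adjusted 1.5e-05). Arntl and Npas2, the genes of the activating arm, had r = 0.79 and rho = 0.80, with 0.79 without 2 livers, 0.82 and 0.76 within the ranges and 0.86 in the middle livers (permutation p = 1e-05, adjusted 1.5e-05). The weakest pair was Nr1d1 and Arntl, with r = -0.45 and rho = -0.46 (permutation p = 0.00115 and 0.00106, adjusted the same), r = -0.42 without 2 livers, -0.37 and -0.55 within the ranges and -0.21 in the middle livers. Nr1d1 and Npas2 had r = -0.63, and Per3 and Nr1d1 had r = 0.59, with permutation p-values of 1e-05 and 2e-05. In the middle livers r was -0.33 for Nr1d1 and Npas2 and 0.21 for Per3 and Nr1d1. In each of the 6 pairs the sign was the same in both ranges of library numbers. The permutations took the livers as exchangeable. These genes also ran with animal number, as given below, and some libraries share a number, so the p-values may be too small. No correlation adjusted for animal number is given.

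**Figure D4:**
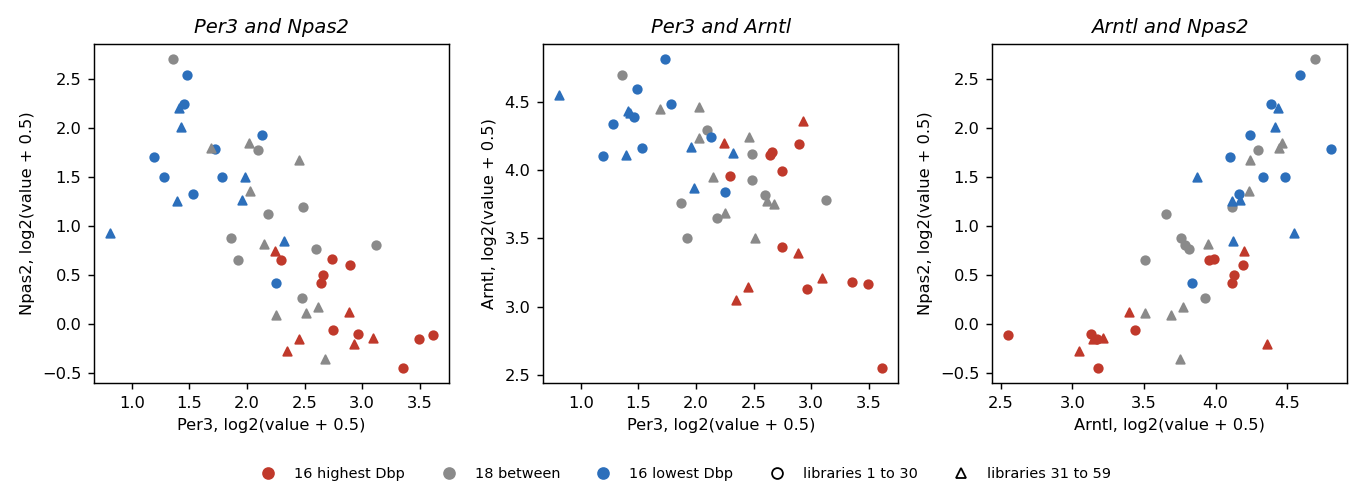
Per3 against Npas2, Per3 against Arntl and Arntl against Npas2 in the 50 livers, both axes as log2(value + 0.5); colours are the groups by Dbp and shapes the ranges of library numbers (circles 1 to 30, triangles 31 to 59). Livers with high Per3 have low Npas2 (r = -0.76) and low Arntl (r = -0.70), and Arntl and Npas2 lie along a rising line (r = 0.79).

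Dbp moved with the animal number in the library titles in runs. The 6 libraries with animal numbers from I196 to I217 all belonged to the high group (17.5 to 36.1 normalized CPM), as did the 5 from I236 to I245 (11.7 to 24.4), and the 5 from I248 to I256 all belonged to the low group (2.82 to 4.67). Over the 50 libraries in order of animal number, neighbours differed in log2 Npas2 by 0.54 on average, against 0.96 over permuted orders (1-sided permutation p = 1e-05, the smallest that 100000 permutations can give, adjusted over 4 genes 4e-05). This test was added after the runs in Dbp were seen, and Dbp itself was not tested. The 4 genes vary with Dbp in the same livers, so runs in Dbp carry over to them. Their p-values are therefore not independent of what prompted the test. For Nr1d1 the neighbours differed by 0.60 against 0.89 (p = 0.0001, adjusted 0.0002). Arntl gave 0.38 against 0.55 (p = 0.00016, adjusted 0.000213) and Per3 0.57 against 0.73 (p = 0.00507, adjusted 0.00507). Within libraries 1 to 30 the permutation p was 0.00267 for Npas2, 0.004 for Nr1d1, 0.0217 for Arntl and 0.0772 for Per3. Within 31 to 59 the permutation p was 0.0476, 0.0378, 0.0815 and 0.446 in the same order, so Per3 did not pass within either range. The mean animal number was 204.7 in the high group and 215.6 in the low group (2-sided permutation p = 0.554, adjusted 0.554). What the animal numbers stand for (a litter, a day, an order of dissection) is not given, and their part in the result was examined only by adding them to the model. As a straight line they left 172 genes higher and 182 lower, and all 37 named genes that passed still did so. With the smooth curve (a natural spline of 5 degrees of freedom) 65 genes were higher and 44 lower, Tef (0.75 log2, adjusted p = 3.63e-06), Nr1d1 (0.000409), Per3 (0.00159) and Npas2 (0.00099) still passed limma, and Arntl did not (-0.41 ± 0.15, adjusted p = 0.199).

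**Figure D5:**
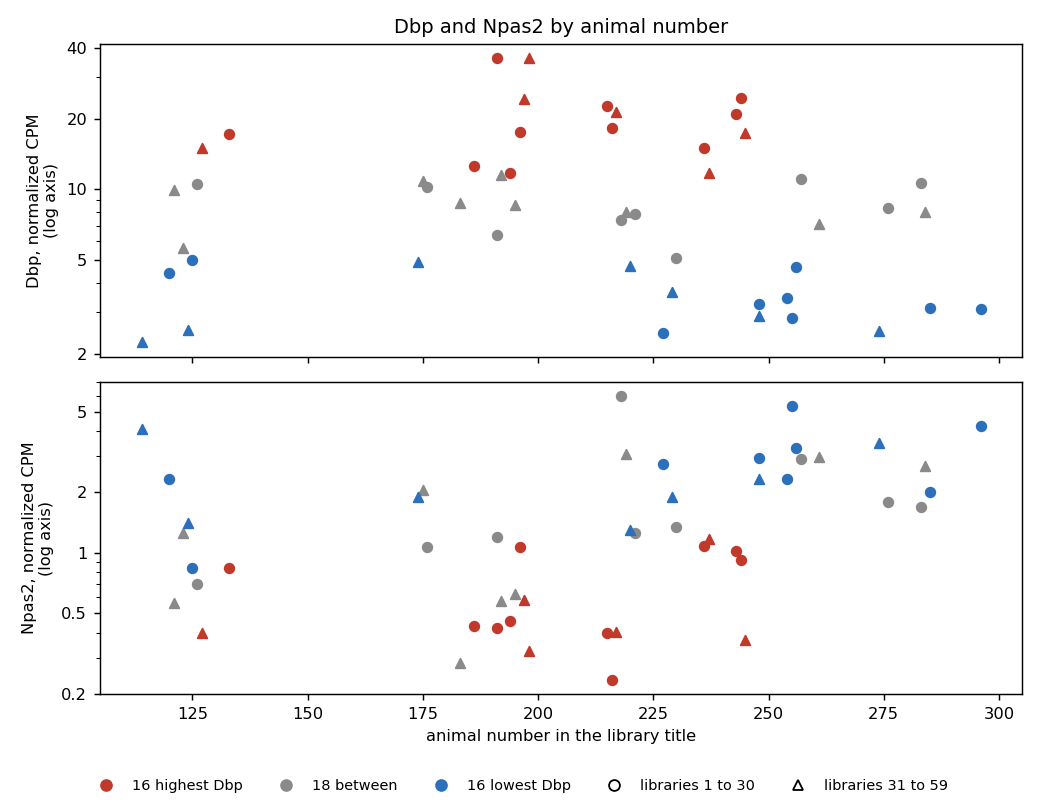
Dbp (top) and Npas2 (bottom) in normalized CPM on log axes against the animal number in the library title; colours are the groups by Dbp and shapes the ranges of library numbers. Runs of neighbouring numbers share a group, with animals I196 to I217 all high and animals I248 to I256 all low in Dbp, and Npas2 lies the other way.

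The 2 libraries of animal I248 differed in clock genes although both had low Dbp. Library 22 had 27.5 normalized CPM of Arntl, 21.96 of Cry1, 13.8 of Ciart and 32.1 of Usp2, the highest of the low group for each, while library 55 had 14.1, 8.67, 4.90 and 11.8. Libraries 10 and 8, of animal I191, differed in Dbp itself, with 36.1 and 6.36. Without these 4 libraries 234 genes were higher and 246 lower. Within libraries 1 to 30 alone, 22 genes were higher and 34 lower, and within 31 to 59 alone 4 and 3. In the smaller range Tef (0.78), Cyp2a5 (1.02), Klhl21 (0.73), Npas2 (-1.41) and Asap2 (-1.05) still passed limma. A test of whether the change differed between the 2 ranges called 0 of 11435 genes in limma after adjustment and 353 at an unadjusted p under 0.05. For Nr1d1 the change was 1.48 in 1 to 30 and 1.28 in 31 to 59, for Per3 1.29 and 1.04, and for Arntl -0.74 and -0.68, in every case with the same direction in both ranges.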

How the data were processed

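Poly(A)-selected, stranded, paired-end libraries were sequenced from liver. After trimming, the authors used HISAT2 against GRCm38.p5 and HTSeq 0.11.1 for counting, and filtered weakly expressed genes and normalized with edgeR. The deposited signal is therefore a normalized CPM of a library size scaled by the authors, and its columns sum to between 886171 and 1120647. Dividing each deposited signal by the value of 1 read gave whole read counts for 100% of the values within 0.01 of a read (largest deviation 0.000323).

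Of 12185 genes, 12177 were placed with GENCODE M21 (GRCm38) and 8 were not. The 16 highest and 16 lowest libraries by Dbp were compared with limma 3.58.1 in R 4.3.3 on log2(value + 0.5), 2-sided, for genes with a mean of at least 1, with Dbp left out and Benjamini-Hochberg adjustment over all 11435 genes at 0.05. edgeR 4.0.16 was run on the recovered reads. Permutation tests used 100000 draws. The limma step was tested on simulated data. The remaining steps ran in Python 3.11.15 (scipy 1.17.1, pandas 2.3.3, numpy 2.4.6, matplotlib 3.10.9). Alternatives covered the pseudocount (0.1 and 1), the filter (none, or a mean of 5), the scaling, covariates, group sizes (12 and 20), a regression over all 50 livers and single libraries.

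Named genes were Per3, Nr1d1 and Arntl, every measured core clock gene, the leading 12 genes by adjusted p in each direction and at most 4 passing members of each list, with members that did not pass given as values. Thra, Akr1c6 and Slc34a2 were named after their values were seen, and the spline of animal number, the omission of single libraries and the test on neighbouring animal numbers were added then. The livers and the gene lists were chosen with earlier results of these data known. Motif letters were searched in the promoters of RefSeq genes matched by symbol. Single-gene values of some genes that the rule covers are not reported here.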

Additional observations from a re-analysis of the deposited data

How the results depend on the processing

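The shares of tested genes called higher (1.64%) and lower (1.71%) in livers with high Dbp stayed within 1.5 times under 11 of 18 settings for the rises and 13 of 18 for the falls. The rises came to 0.918% with plain CPM, 1.05% with the part of the reads taken by the top 10 genes in the model, 0.848% with 12 against 12 livers, 0.315% with 20 against 20, 0.568% with the spline of animal number, 0.192% within libraries 1 to 30 and 0.035% within 31 to 59. The falls came to 2.59% with plain CPM, 0.306% with 20 against 20, 0.385% with the spline, 0.297% within libraries 1 to 30 and 0.0262% within 31 to 59. Leaving out 1 library at a time gave 1.20% to 2.72% rises and 1.23% to 2.66% falls, with the highest shares without library 22. Of 37 named genes that passed, 27 passed with the spline, 24 within libraries 1 to 30 and 5 within 31 to 59, and Tef, Cyp2a5, Asap2 and Npas2 passed in every setting in which they were tested. The direction of no named gene that passed turned in any setting. The 2 ranges hold 19 and 13 of the 32 livers, so fewer samples enter those fits. The cause of a changed count was not tested for any setting, the ranges included. The 18 middle livers gave 0 calls in limma under all 6 of their alternatives. No paired analysis was possible because the labels give 1 group, so that the livers compared share no replicate numbers. Animal number and library range entered as covariates instead.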
